A study of Mus musculus with 8 samples.

Results

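The genes described here belong to retinoic acid signaling. They are the nuclear receptors Rara, Rarb, Rarg and Rxra, the retinoic acid hydroxylases Cyp26a1 and Cyp26b1, the retinaldehyde dehydrogenases Aldh1a1 and Aldh1a2, the retinoic acid binding protein Crabp2 and the retinol transporter Stra6. They were found by gene symbol in the table of array values, where all 10 had a row among 25428 rows. The 10 genes had been chosen with results of this same comparison known, so their differences between genotypes are given as a description without p-values.

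Liver sinusoidal endothelial cells (LSECs), the fenestrated endothelium that lines the blood spaces between the plates of hepatocytes, were measured on 8 Affymetrix mouse gene arrays, 4 of Ctnnb1OE-EC and 4 of Ctrl mice. Ctnnb1OE-EC mice carried Clec4g-iCre tg/wt and Ctnnb1(Ex3) fl/wt, by which Cre removes an exon of Ctnnb1 that encodes the sites marking β-catenin for degradation, and the gene product accumulates. Ctrl mice were labelled as control and as wildtype, and their alleles are not given in the sources used here. All mice were females of 2 months on C57BL/6J, and each sample held cells from the pooled livers of 2 mice, isolated with magnetic beads that bind the endothelial surface protein CD146. The Clec4g promoter drives the recombinase in LSECs, but its activity also reached endothelial cells of the heart, so the mutation was not limited to the cells on these arrays. The comparison asks how constant β-catenin activity alters the genes that LSECs express.

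Retinoic acid is made from vitamin A. Retinol enters cells, among others through Stra6, is oxidized to retinaldehyde and then, by enzymes of the Aldh1a family, to retinoic acid, which enzymes of the Cyp26 family hydroxylate and so clear. Retinoic acid binds heterodimers of a retinoic acid receptor (RAR) and a retinoid X receptor (RXR) on DNA, and among the textbook targets of these dimers are Rarb, Cyp26a1 and Dhrs3, so that part of the pathway is under control of its own product. The liver holds most of the body's vitamin A, as retinyl esters in stellate cells, which lie next to LSECs in the space of Disse.

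The array row of Ctnnb1, which does not resolve the removed exon, had log2 values of 10.63, 10.55, 10.73 and 10.60 in Ctnnb1OE-EC replicates 1 to 4, against 10.36, 10.49, 9.90 and 10.38 in Ctrl replicates 1 to 4, a log2 fold change of 0.34 (SE 0.13, limma adjusted p = 0.361). Clec4g, the source of the Cre promoter and a gene of LSECs, had log2 values of 12.63 to 12.84 in Ctnnb1OE-EC and 12.87 to 12.92 in Ctrl. The Wnt target genes Axin2 and Lef1 rose with log2 fold changes of 2.14 (SE 0.19, limma adjusted p = 0.00136) and 2.15 (SE 0.33, limma adjusted p = 0.0200). The call of Lef1, but not its direction, ended without Ctnnb1OE-EC replicate 3 (adjusted p = 0.0716 from limma) or without Ctrl replicates 2, 3 or 4 (0.0547, 0.0581 and 0.0735). All 8 LSEC markers and all 6 general endothelial markers lay above the array median, a log2 value of 4.20, on every array. Of the 8 LSEC markers, 1, Lyve1, passed the test as lower (log2 fold change -1.78, limma adjusted p = 0.0178), beside 0.385% of all rows. By their means, 7 of the 8 were lower and 1 higher in Ctnnb1OE-EC. In 4 of them, all Ctnnb1OE-EC samples lay below all Ctrl samples, where 4.04% of all rows did so. The mean of the 8 relative to Ctrl was -0.45 to -0.21 in Ctnnb1OE-EC and -0.04 to 0.10 in Ctrl. Its part in the retinoid results was not tested. On the first principal component, with 30.6% of the variance, Ctnnb1OE-EC replicates 3 and 4 lay away from the other samples, and they carried higher signal of 7 adrenal cortex genes (means of 2.64 and 1.69 on the log2 scale relative to Ctrl, with -0.21 to 0.20 in the other 6 samples). For the 10 genes, values without these 2 samples are given wherever they moved the log2 fold change by over 1.5 times or ended a call.

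Among the receptors, Rarb was lower in Ctnnb1OE-EC LSECs in every sample, Rarg was lower on average with overlapping genotypes, and the genotype means of Rara and Rxra differed by at most 0.26 on the log2 scale. Rarb (Entrez 218772), the receptor whose own gene retinoic acid induces in many cell types, had log2 values of 6.25, 6.96, 6.33 and 5.81 in Ctnnb1OE-EC replicates 1 to 4, against 7.60, 8.24, 8.63 and 8.21 in Ctrl replicates 1 to 4. The highest Ctnnb1OE-EC sample lay below the lowest Ctrl sample. The mean log2 value was 6.34 ± 0.47 in Ctnnb1OE-EC and 8.17 ± 0.43 in Ctrl (SD, n = 4 each), a log2 fold change of -1.83 (SE 0.27) or 3.57-fold lower signal. In bulk RNA of this kind, fewer expressing cells and less RNA per cell cannot be told apart.

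Rarb was the 1 gene of the 10 past an adjusted p of 0.05 in the fit over all rows, where 0.92% of rows passed in either direction, 0.385% as lower and 0.535% as higher. Since the genes were chosen on this contrast, nothing is read from that count. The call of Rarb ended without Ctnnb1OE-EC replicate 1 (log2 fold change -1.81), without Ctnnb1OE-EC replicate 3 (-1.83), without Ctrl replicate 2 (-1.81), without Ctrl replicate 4 (-1.82), without Ctnnb1OE-EC replicates 3 and 4 together (-1.57) and by the methods' t-test. Rarb is also absent from the genes that the authors listed as significant. Over all 20 other settings its log2 fold change lay between -2.04 and -1.57.

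**Figure D1:**
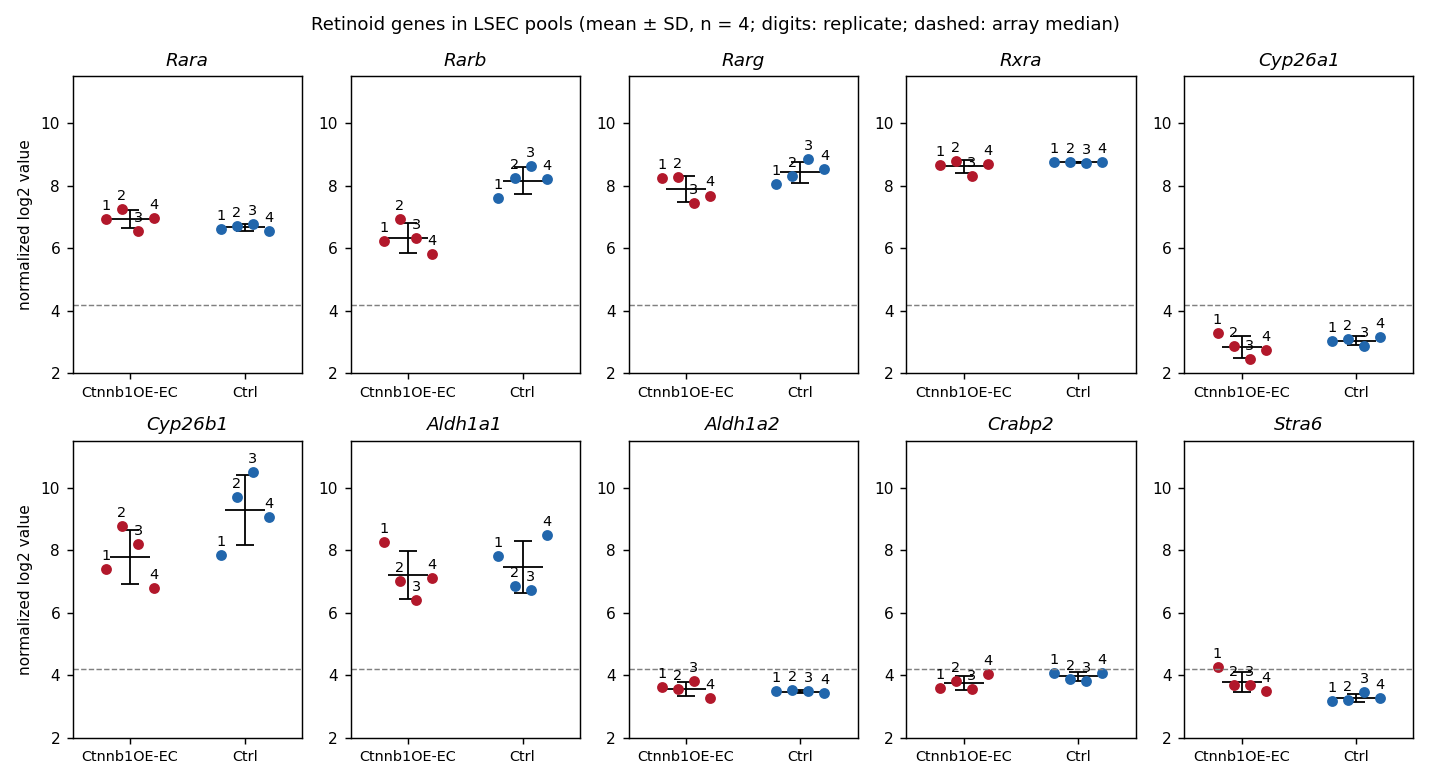
Normalized log2 value (vertical axis) of each of the 10 genes in the 4 Ctnnb1OE-EC samples (red, left) and the 4 Ctrl samples (blue, right), with replicate numbers, mean and SD. The Rarb points of Ctnnb1OE-EC, 5.81 to 6.96, all lie below those of Ctrl, 7.60 to 8.63, and the genes below the dashed array median of 4.20 are Cyp26a1, Aldh1a2, Crabp2 and, by its means, Stra6.

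The promoter of Rarb is shown because it carries a retinoic acid response element within the 100 bases before the start site. That of Cyp26a1 is shown because it carries one too. The Cyp26a1 row lay below the array median in every sample, so its lack of a comparable difference is not informative. Both promoters were taken from RefSeq (GRCm38.p6) and end at the base before the annotated start. Capitals mark a DR5 element, a direct repeat of 2 RAR half-sites with 5 bases between them. The Rarb stretch is chr14:16575477-16575576 on the minus strand, with the element at bases -53 to -37 from the start in the direction of the gene. The Cyp26a1 stretch is chr19:37697708-37697807 on the plus strand, with the element at bases -32 to -16, where the repeat reads on the opposite strand.
Rarb: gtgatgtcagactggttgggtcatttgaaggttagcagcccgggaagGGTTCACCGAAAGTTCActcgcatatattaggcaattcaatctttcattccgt
Cyp26a1: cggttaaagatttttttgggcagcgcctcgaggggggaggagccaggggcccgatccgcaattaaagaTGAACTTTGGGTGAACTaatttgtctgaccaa
A DR5 match on either strand occurred in 106 of 32851 RefSeq promoter windows of 250 bases before to 50 after the start (0.323%), and in windows of 2 of the 9 genes with an entry, Rarb and Cyp26a1. The TCF/LEF core CTTTGAT, searched on both strands, occurred in 3.73% of all windows and in 1 of the 9 genes, Stra6, at -145 to -139. Its variant CTTTGAA occurred in 5.14% of all windows and in 1 of the 9 genes, Aldh1a1, at -131 to -125 and -88 to -82. The percentages count windows and the other numbers count genes, so they are not like measures. Rarb and Cyp26a1 are also textbook targets of the receptors, so nothing is read from their matches. A match of letters is a description of the sequence, and no binding was measured on these arrays.

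Rarg (Entrez 19411), an RAR that is prominent in skin and cartilage, had log2 values of 8.25, 8.28, 7.44 and 7.69 in Ctnnb1OE-EC replicates 1 to 4, against 8.06, 8.32, 8.85 and 8.54 in Ctrl replicates 1 to 4. Ctnnb1OE-EC replicates 3 and 4 lay below all Ctrl samples, while replicates 1 and 2 lay within the Ctrl range. The log2 fold change was -0.53 (SE 0.23), from means of 7.92 ± 0.42 in Ctnnb1OE-EC and 8.44 ± 0.33 in Ctrl (SD, n = 4 each). It was -0.18 without Ctnnb1OE-EC replicates 3 and 4.

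Rara (Entrez 19401), the RAR that most tissues express, had log2 values of 6.94, 7.25, 6.56 and 6.98 in Ctnnb1OE-EC, against 6.63, 6.72, 6.79 and 6.55 in Ctrl. Its difference ran opposite to that of Rarb, with 3 of the 4 Ctnnb1OE-EC samples above every Ctrl sample and replicate 3 within the Ctrl range. The log2 fold change was 0.26 (SE 0.14), with 0.15 without Ctnnb1OE-EC replicate 2 and 0.42 without Ctnnb1OE-EC replicates 3 and 4. Rxra (Entrez 20181), the main RXR of the liver and partner of several nuclear receptors besides the RARs, had log2 values of 8.68, 8.79, 8.32 and 8.70 in Ctnnb1OE-EC, against 8.76, 8.77, 8.73 and 8.78 in Ctrl. The Ctrl samples lay within an SD of 0.02, and Ctnnb1OE-EC replicate 3 was the low sample of the other genotype. Its log2 fold change was -0.13 (SE 0.11), -0.03 without Ctnnb1OE-EC replicate 3 and -0.02 without replicates 3 and 4.

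Of the hydroxylases that clear retinoic acid, Cyp26b1 was lower on average in Ctnnb1OE-EC LSECs but varied widely within both genotypes, and Cyp26a1 had signal below the array median in all samples. Cyp26b1 (Entrez 232174) had log2 values of 7.40, 8.77, 8.20 and 6.80 in Ctnnb1OE-EC replicates 1 to 4, against 7.85, 9.72, 10.49 and 9.06 in Ctrl replicates 1 to 4. Ctrl replicate 1 lay inside the range of Ctnnb1OE-EC, and the other Ctrl samples lay above all Ctnnb1OE-EC samples. The means were 7.79 ± 0.87 in Ctnnb1OE-EC and 9.28 ± 1.12 in Ctrl (SD, n = 4 each), a log2 fold change of -1.49 (SE 0.58) or 2.80-fold lower signal. Over the settings tried, its log2 fold change lay between -1.96, without Ctrl replicate 1, and -1.08, without Ctrl replicate 3. Cyp26a1 (Entrez 13082), the hydroxylase of the adult liver that retinoic acid induces, had log2 values of 3.28, 2.88, 2.46 and 2.75 in Ctnnb1OE-EC, against 3.04, 3.11, 2.87 and 3.18 in Ctrl. The genotypes overlapped at this low signal, with a log2 fold change of -0.21 (SE 0.17), which was 0.03 without Ctnnb1OE-EC replicates 3 and 4, -0.08 without replicate 3 alone and -0.35 without replicate 1.

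Within each genotype, Rarb and Cyp26b1 had the same samples at the top and at the bottom. Both were highest in Ctnnb1OE-EC replicate 2 and lowest in Ctnnb1OE-EC replicate 4, and both were highest in Ctrl replicate 3 and lowest in Ctrl replicate 1. As deviations from the mean of their own genotype on the log2 scale, Rarb had -0.09, 0.62, 0.00 and -0.53 in Ctnnb1OE-EC replicates 1 to 4 and -0.57, 0.07, 0.46 and 0.04 in Ctrl replicates 1 to 4. Cyp26b1 had deviations of -0.39, 0.98, 0.41 and -0.99 in Ctnnb1OE-EC and -1.43, 0.44, 1.21 and -0.22 in Ctrl. Dhrs3, the retinaldehyde reductase that returns retinaldehyde to retinol, had its highest and lowest samples in the same 4 places. Its Ctrl replicates 2, 3 and 4 lay close together, at 11.15, 11.20 and 11.18. Other listed retinoid genes outside the 10 were not ranked for this comparison. Rarg shared 3 of the places, with its lowest Ctnnb1OE-EC sample in replicate 3. Cyp26a1, at signal below the array median, was highest in Ctnnb1OE-EC replicate 1 and Ctrl replicate 4. It was lowest in replicate 3 of both genotypes. The top samples of Rarb, Cyp26b1, Dhrs3 and Rarg were not particular to these genes. Within each genotype, the LSEC and the general endothelial marker means were also highest in Ctnnb1OE-EC replicate 2 and Ctrl replicate 3. Relative to Ctrl, the LSEC mean was -0.21 and 0.10 there, and the general endothelial mean 0.02 and 0.05. Among Ctnnb1OE-EC samples, both marker means were lowest in replicate 1, unlike Rarb and Cyp26b1. Among Ctrl samples, the general endothelial mean was lowest in replicate 1, as were Rarb and Cyp26b1, and the LSEC mean in replicate 4.

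The 6 Kupffer cell markers, of the resident macrophages of the liver sinusoids, were highest where Rarb and Cyp26b1 were lowest. Their mean deviation was 0.17, -1.11, 0.11 and 0.83 on the log2 scale in Ctnnb1OE-EC replicates 1 to 4 and 0.91, 0.31, -1.10 and -0.12 in Ctrl replicates 1 to 4. Relative to the Ctrl mean, the marker mean ranged from -1.24 to 0.70 in Ctnnb1OE-EC and from -1.10 to 0.91 in Ctrl. All 6 markers lay above the array median, the mean of Ctnnb1OE-EC was higher for 1 and lower for 5, and 0 passed the test (0 also at an unadjusted p under 0.05). With the marker mean as a covariate in the fit, an alternative chosen after the data were seen, the log2 fold change of Rarb was -1.90 (SE 0.10), that of Cyp26b1 -1.63 (SE 0.29) and that of Rarg -0.57 (SE 0.17). That fit called 288 of 25428 rows, Rarb and Cyp26b1 among them. The marker mean had been seen to run opposite to these 2 genes within each genotype. Their smaller SEs therefore follow from the choice of covariate, and nothing is read from the calls.

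**Figure D2:**
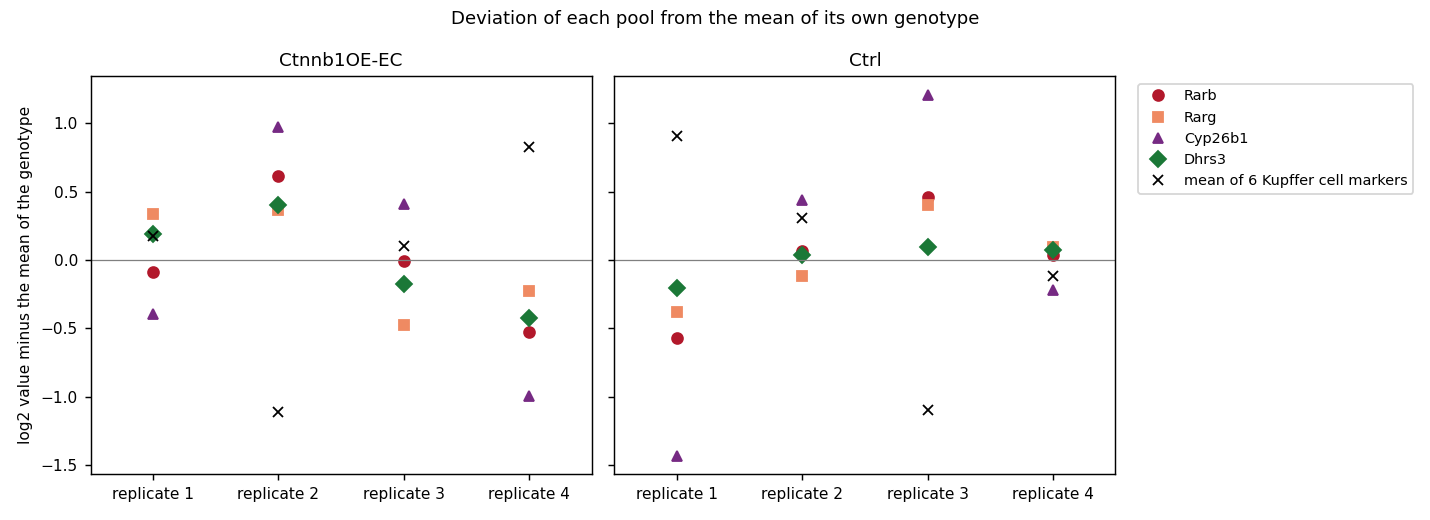
Deviation of each sample from the mean of its own genotype, as a difference of log2 values (vertical axis), for Rarb, Rarg, Cyp26b1, Dhrs3 and the mean of 6 Kupffer cell markers, by replicate (Ctnnb1OE-EC left, Ctrl right). Cyp26b1 reached 0.98 in Ctnnb1OE-EC replicate 2 and 1.21 in Ctrl replicate 3, where the Kupffer cell markers stood at -1.11 and -1.10.

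The genes that make retinoic acid showed no separation of the genotypes. Aldh1a1 (Entrez 11668), a retinaldehyde dehydrogenase that hepatocytes also express, had log2 values of 8.26, 7.00, 6.42 and 7.12 in Ctnnb1OE-EC replicates 1 to 4, against 7.81, 6.86, 6.74 and 8.48 in Ctrl replicates 1 to 4. Its highest samples were Ctnnb1OE-EC replicate 1 and Ctrl replicate 4. Its log2 fold change of -0.27 (SE 0.46) changed sign without Ctrl replicate 4 (0.07) and without Ctnnb1OE-EC replicates 3 and 4 (0.16), and was -0.01 without Ctnnb1OE-EC replicate 3 and -0.16 without Ctrl replicate 1. It was further below 0 without Ctnnb1OE-EC replicate 1 (-0.62), without Ctrl replicate 3 (-0.52) and without Ctrl replicate 2 (-0.48). The mean of 7 hepatocyte markers relative to Ctrl was 1.01, -0.23, -2.02 and -1.31 on the log2 scale in Ctnnb1OE-EC replicates 1 to 4 and 0.58, -0.90, -0.48 and 0.80 in Ctrl replicates 1 to 4, so it too was highest in Ctnnb1OE-EC replicate 1 and Ctrl replicate 4. All 7 had means above the array median and a lower mean in Ctnnb1OE-EC, and 0 of them passed the test. At an unadjusted p under 0.05, 1 of the 7 was lower, beside 6.02% of all rows. With that mean as a covariate, also chosen after the data were seen, the log2 fold change of Aldh1a1 was 0.14 (SE 0.24), while that of Rarb was -1.85 (SE 0.29). Aldh1a2 (Entrez 19378), the main dehydrogenase of the embryo, had log2 values of 3.61, 3.55, 3.81 and 3.28 in Ctnnb1OE-EC, against 3.48, 3.51, 3.49 and 3.43 in Ctrl, all below the array median. Its log2 fold change was 0.09 (SE 0.12), with 0.005 without Ctnnb1OE-EC replicate 3 and 0.18 without Ctnnb1OE-EC replicate 4.

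Crabp2 and Stra6 both had group means below the array median. Stra6 (Entrez 20897), the membrane receptor that takes up retinol from its carrier in blood, had log2 values of 4.26, 3.70, 3.70 and 3.51 in Ctnnb1OE-EC replicates 1 to 4, against 3.17, 3.21, 3.45 and 3.28 in Ctrl replicates 1 to 4. Every Ctnnb1OE-EC sample was above every Ctrl sample, and only Ctnnb1OE-EC replicate 1 exceeded the array median. The means were 3.79 ± 0.33 in Ctnnb1OE-EC and 3.28 ± 0.13 in Ctrl (SD, n = 4 each), a log2 fold change of 0.51 (SE 0.16) that lay between 0.35 and 0.70 in other settings. Crabp2 (Entrez 12904), which carries retinoic acid to the receptors in the nucleus, had log2 values of 3.60, 3.83, 3.56 and 4.03 in Ctnnb1OE-EC, against 4.07, 3.89, 3.80 and 4.08 in Ctrl. Its genotypes overlapped, with a log2 fold change of -0.21 (SE 0.13).

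By their Ctnnb1OE-EC means, 3 of the 10 genes were higher and 7 lower. Their median log2 fold change was -0.21, beside -0.01 over all rows. Samples did not overlap between genotypes for 2 of the 10, Stra6 higher and Rarb lower, where 7.59% of all rows showed no overlap. As the genes were chosen on this contrast, this too is a description. The means of 6 of the 10 lay above the array median in at least 1 genotype, namely Rara, Rarb, Rarg, Rxra, Cyp26b1 and Aldh1a1.

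**Figure D3:**
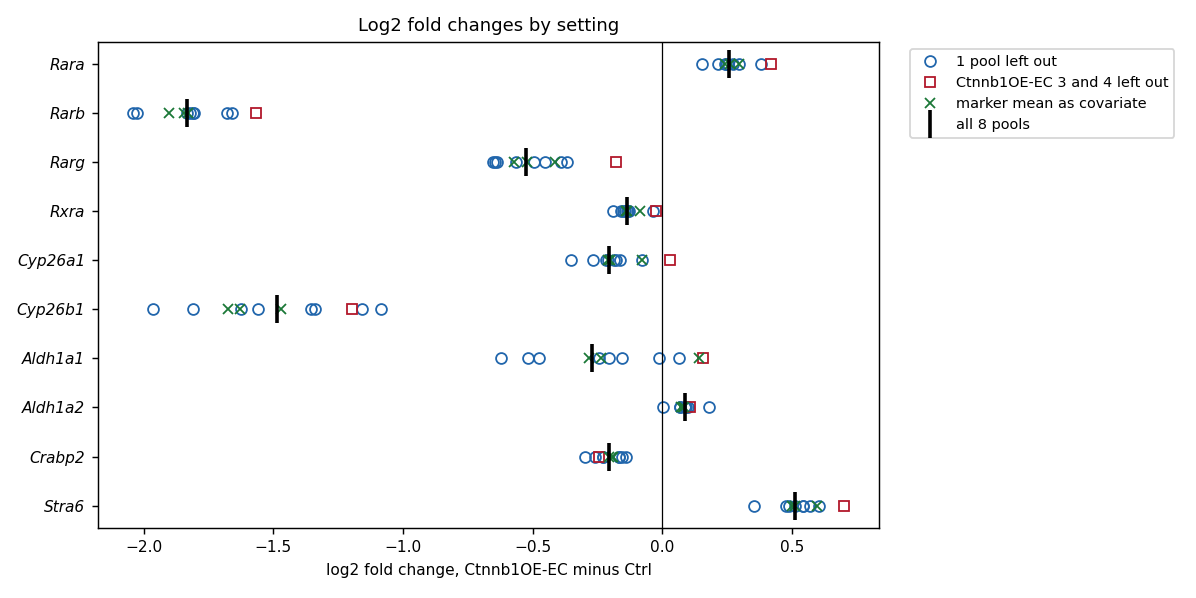
Log2 fold change, Ctnnb1OE-EC minus Ctrl (horizontal axis), of each of the 10 genes with all 8 samples (black bars), with 1 sample left out (blue circles), with Ctnnb1OE-EC replicates 3 and 4 left out together (red squares) and with the mean of a marker list as a covariate (green crosses). Rarb stayed between -2.04 and -1.57 and Cyp26b1 between -1.96 and -1.08, whereas Aldh1a1 and Cyp26a1 had values on both sides of 0.

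Around these 10 genes, 65 further genes of retinoid handling and response were listed in 6 groups, of which 61 had a named row. None of the 61 passed the limma test at an adjusted p of 0.05 (0 also by the methods' t-test), while 1 was higher and 6 were lower at an unadjusted p under 0.05, beside 5.49% of all rows higher and 6.02% lower. The means of 21 were higher and of 40 lower in Ctnnb1OE-EC, with a median log2 fold change of -0.05. In 3 genes, Ncoa3, Meis1 and Pdk4, all Ctnnb1OE-EC samples lay below all Ctrl samples, where 4.04% of all rows did so.

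For retinol uptake and binding, the mean of Ctnnb1OE-EC was higher in 4 and lower in 6 of 10 measured genes, at a median log2 fold change of -0.02. Crabp1, a binding protein of retinoic acid in the cytoplasm, had the smallest p, with a log2 fold change of 0.28 (SE 0.12, limma adjusted p = 0.411) at signal below the array median. Cd36, a scavenger receptor for lipids, had a log2 fold change of 0.12 (SE 0.09, limma adjusted p = 0.683). Ttr, the plasma carrier made by hepatocytes that binds the retinol carrier Rbp4, had log2 values of 10.96, 9.65, 7.85 and 8.80 in Ctnnb1OE-EC replicates 1 to 4, against 10.34, 8.86, 8.67 and 10.34 in Ctrl. It was chosen after its values were seen, since its highest Ctnnb1OE-EC sample was replicate 1, as for Aldh1a1 and the hepatocyte markers.

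For storage and hydrolysis of retinyl esters, the mean was higher in 1 and lower in 5 of 6 genes, at a median log2 fold change of -0.15. Lrat, the acyltransferase that esterifies retinol in stellate cells, had log2 values of 7.47, 6.15, 6.29 and 4.94 in Ctnnb1OE-EC replicates 1 to 4, against 8.26, 6.40, 5.19 and 7.68 in Ctrl, and is named here although outside the rule, as a marker of stellate cells. Its spread within each genotype exceeded its log2 fold change of -0.67 (SE 0.70, limma adjusted p = 0.786). The mean of 8 stellate cell markers, Lrat among them, ranged from -0.28 to 0.16 in Ctnnb1OE-EC and from -1.25 to 0.59 in Ctrl on the log2 scale relative to Ctrl, with 0 of 8 past the test or at an unadjusted p under 0.05. With that mean as a covariate, Cyp26b1 had a log2 fold change of -1.47 (SE 0.51) and Rarb -1.83 (SE 0.26). Lipe, a hormone-sensitive lipase that also cleaves retinyl esters, and Pnpla3, a hydrolase of lipid droplets, had log2 fold changes of -0.42 (SE 0.21, limma adjusted p = 0.509) and -0.23 (SE 0.11, limma adjusted p = 0.503).

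Of 18 enzymes that convert retinol and retinaldehyde, 7 were higher and 11 lower by their means, at a median log2 fold change of -0.03. Dhrs3 had log2 values of 10.72, 10.93, 10.35 and 10.10 in Ctnnb1OE-EC replicates 1 to 4, against 10.91, 11.15, 11.20 and 11.18 in Ctrl replicates 1 to 4. Ctnnb1OE-EC replicate 2 lay just above the lowest Ctrl sample, and the other 3 lay below all Ctrl samples. Its log2 fold change was -0.58 (SE 0.18, limma adjusted p = 0.225), and -0.29 without Ctnnb1OE-EC replicates 3 and 4. Rdh10, the dehydrogenase that oxidizes retinol in the opposite direction, had a log2 fold change of -0.32 (SE 0.14, limma adjusted p = 0.424). Of the 4 further enzymes of synthesis and clearance, Aldh1a3 (0.10, adjusted p = 0.873) and Cyp26c1 (0.07, adjusted p = 0.882), named as log2 fold changes, had signal below the array median.

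Of 9 measured partner receptors and cofactors, 2 were higher and 7 lower by their means, at a median log2 fold change of -0.17. Ncoa3, a coactivator that docks on ligand-bound nuclear receptors, had log2 values of 10.08, 10.09, 9.58 and 9.76 in Ctnnb1OE-EC replicates 1 to 4, against 10.52, 10.43, 10.63 and 10.35 in Ctrl replicates 1 to 4. The genotypes did not overlap, with a log2 fold change of -0.61 (SE 0.13, limma adjusted p = 0.0939). Its adjusted p ranged from 0.0417, with a trended and robust variance prior, to 0.311 over the settings tried, and its log2 fold change was -0.40 without Ctnnb1OE-EC replicates 3 and 4. Ncoa2, a coactivator of the same family, had a log2 fold change of -0.21 (SE 0.09, limma adjusted p = 0.453).

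Of 14 measured genes known to respond to retinoic acid in various cells, 5 were higher and 9 lower by their means, at a median log2 fold change of -0.09. Pdk4, a kinase that restrains pyruvate dehydrogenase, had log2 values of 8.11, 8.79, 8.92 and 8.71 in Ctnnb1OE-EC replicates 1 to 4, against 9.17, 9.12, 9.46 and 9.0 in Ctrl replicates 1 to 4, without overlap. Its log2 fold change was -0.55 (SE 0.18, limma adjusted p = 0.267). The homeobox genes Meis2 and Meis1 had log2 fold changes of -0.38 (SE 0.13, limma adjusted p = 0.274) and -0.34 (SE 0.12, limma adjusted p = 0.297), Meis1 being named for its lack of overlap, with log2 values of 7.92 to 8.41 in Ctnnb1OE-EC and 8.42 to 8.64 in Ctrl. Tgm2, the transglutaminase that retinoic acid induces in macrophages, is named after its values were seen, as a gene with a higher mean, and had a log2 fold change of 0.27 (SE 0.16, limma adjusted p = 0.584).

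**Figure D4:**
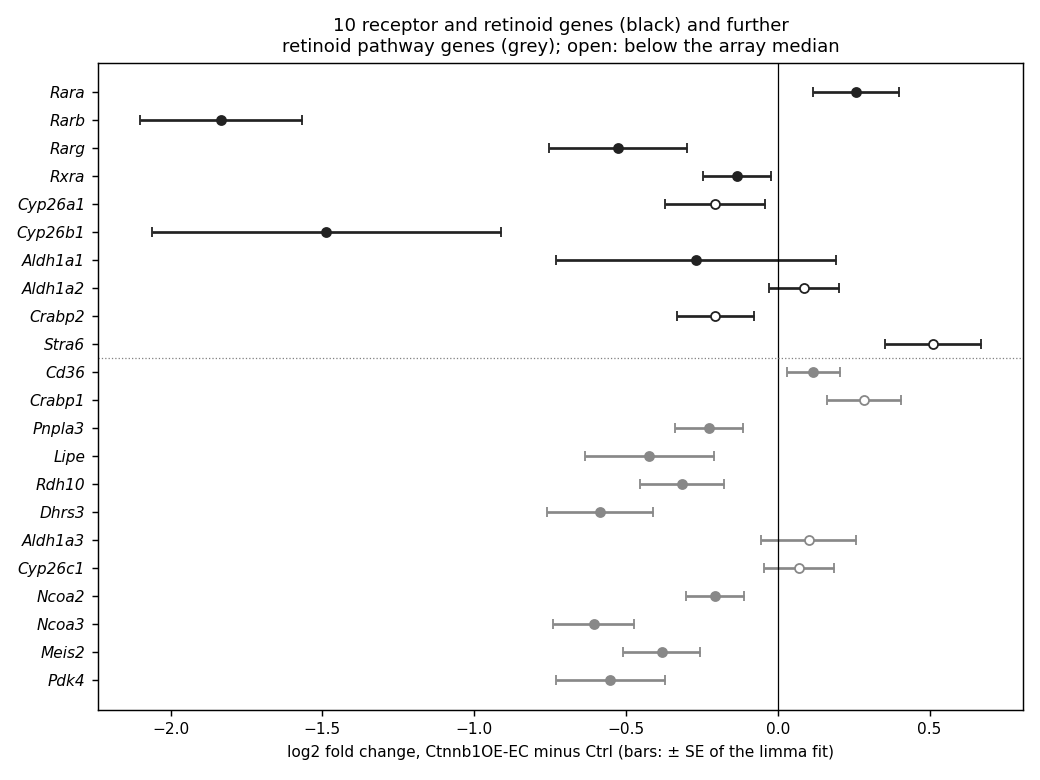
Log2 fold change, Ctnnb1OE-EC minus Ctrl (horizontal axis), with its SE from the limma fit, of the 10 genes (black, above the dotted line) and of 12 further retinoid genes (grey); open circles mark genes below the array median in both genotypes. Rarb at -1.83 and Cyp26b1 at -1.49 lie farthest from 0, and none of the grey genes passed the test over all rows.

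For the 3 genes above the array median with the largest log2 fold changes, the most similar patterns over the 8 samples were sought among 24695 other named rows, by the root mean square difference of log2 values after each row was centred on its mean. For Rarb, whose own spread on this measure was 0.997, the nearest were Pnp2, a purine nucleoside phosphorylase (0.278), Ackr4, a scavenging chemokine receptor (0.310), and Enpp6, a choline-specific phosphodiesterase (0.353). Ackr4 had log2 values of 7.56, 7.90, 7.35 and 6.44 in Ctnnb1OE-EC replicates 1 to 4, against 9.0, 8.97, 9.07 and 8.95 in Ctrl replicates 1 to 4. Like Rarb, all 3 had their highest Ctnnb1OE-EC sample in replicate 2 and their highest Ctrl sample in replicate 3, though the Ctrl values of Ackr4 differed little. The lowest Ctnnb1OE-EC sample was replicate 4 for Ackr4 and Pnp2, as for Rarb, but replicate 1 for Enpp6.

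For Cyp26b1, with a spread of 1.14, the nearest rows were farther away, namely Serpina3b (0.480), Gm8906 (0.536) and Il33, an alarmin cytokine (0.548). Il33 had log2 values of 6.81, 6.83, 7.00 and 6.23 in Ctnnb1OE-EC, against 6.95, 7.84, 8.54 and 7.98 in Ctrl, which likewise put Ctrl replicate 3 at the top and Ctrl replicate 1 at the bottom of its genotype. For Rarg, with a spread of 0.419, they were Tmc8 (0.0911), Mfsd5 (0.123) and Zhx2 (0.133). Tmc8 had log2 values of 8.27, 8.32, 7.34 and 7.62 in Ctnnb1OE-EC, against 8.13, 8.52, 8.79 and 8.55 in Ctrl, and like Rarg it was lowest in Ctnnb1OE-EC replicate 3 and highest in Ctrl replicate 3. These 9 genes were selected for likeness, so a shared order of samples follows from that selection. Their own genotype differences carry no test here.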

How the data were processed

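RNA of LSECs was measured on 8 arrays. The authors processed the scans with a custom CDF of Entrez-based gene definitions and robust multiarray analysis (RMA, version not given in the sources used here), and the deposited values are normalized log2 signal, 1 value per row and sample. Sorted values of any pair of arrays differed by at most 0.00183, so a shift shared by most genes would not be seen, and 0 pairs were identical. No detection calls were used. Precision is limited by the number of arrays.

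Of 25428 rows, 24705 were named through Entrez identifiers. limma 3.58.1 (R 4.3.3) fitted the genotype difference of every row with lmFit and eBayes, without a trend and with a prior of 3.21 degrees of freedom. Tests were two-sided, and p-values of all rows were adjusted together by Benjamini-Hochberg, with calls at 0.05. The code was tested on simulated data. The methods name a one-way analysis of variance per gene with false discovery rate correction, run here as the methods' t-test. That run did not reproduce all calls the authors reported. Replicates are separate pools. The 10 genes and all gene lists were chosen with earlier results of these data known. Of each retinoid list, genes past the threshold or else the 2 with the smallest p were named, with exceptions stated beside them. Other settings were a trended and robust prior (statmod 1.5.0), array weights, median centring, repeated quantile normalization, a filter at the median, rows with 1 symbol, the replicate number as a block, samples left out and marker means as covariates.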

Additional observations from a re-analysis of the deposited data

Results flagged for a closer look

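Of 35 genes checked in 70 groups of 4 samples, 2 held a sample far from the rest of its group, where chance gives about 1 in 20 groups. Serpina3b, named for its likeness to Cyp26b1, had a log2 value of 6.65 in Ctrl replicate 3, with the other Ctrl samples at 4.53 to 4.86. Clec4g had a log2 value of 12.92 in Ctrl replicate 1, with the other Ctrl samples all at 12.87, a small step near the top of the scale. None of the 10 retinoid genes had such a sample.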

How the results depend on the processing

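The number of rows past the threshold was 234 in the limma fit as designed, 20 by the methods' t-test, 61 when both Ctnnb1OE-EC replicates 3 and 4 were dropped, 144 with the hepatocyte marker mean as a covariate, and 92 to 223 with 1 sample left out. It was 292 with a trended and robust prior, 288 with the Kupffer cell covariate, 284 with rows above the median alone and 269 with array weights. The cause of these shifts was not tested. Of the 10 genes, that limma fit called 1, Rarb. The methods' t-test and the fit without Ctnnb1OE-EC replicates 3 and 4 called 0, the Kupffer cell covariate called 2 (Rarb and Cyp26b1), and leaving out 1 sample gave 0 to 1. Of the 61 further retinoid genes, that limma fit called 0, a trended and robust prior 1 (Ncoa3, adjusted p = 0.0417), and leaving out 1 sample 0 to 0. Lef1 lost its call in 6 settings, with adjusted p up to 0.137 by the methods' t-test, and Axin2 in 1, the methods' t-test (adjusted p = 0.0507). The authors reported Axin2 as significant by their own analysis of variance, so the t-test run here did not reproduce that call. The significant genes that the authors listed include neither Lef1 nor any of the 10 retinoid genes, Rarb among them. Rarb, Axin2 and Lef1, the called genes followed over the settings, kept the sign of their log2 fold change. Other called rows were not followed in this way. With the replicate number as a block, 86 rows were called, Rarb among them. Deviations of same-numbered samples correlated at 0.25, -0.18, 0.03 and -0.15 for replicates 1 to 4, so 1 of 4 pairs was over 0.1, and samples were not treated as paired. The covariates were chosen after the data were seen, so nothing is read from the calls they gave. Cyp26a1, Aldh1a2, Crabp2 and Stra6 were measured at signal below the array median, where their folds are least certain.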

Other observations

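Marker lists of other cell types, as means of log2 values relative to the Ctrl mean of each gene, varied among the samples. Neutrophil and monocyte markers ranged from 0.01 to 1.56 in Ctnnb1OE-EC and from -0.38 to 0.58 in Ctrl, with the highest values in Ctnnb1OE-EC replicates 3 and 4. Smooth muscle markers ranged from -0.56 to 1.59 in Ctnnb1OE-EC and from -0.89 to 1.47 in Ctrl, and mesothelial markers from 0.21 to 0.53 in Ctnnb1OE-EC and from -0.73 to 0.36 in Ctrl. Acinar markers of the pancreas spread most, from -2.30 to 1.88 in Ctnnb1OE-EC and from -2.35 to 2.27 in Ctrl. B cell markers ranged from -0.55 to 1.02 in Ctnnb1OE-EC and from -0.87 to 0.69 in Ctrl, T and NK cell markers from -0.58 to 0.40 in Ctnnb1OE-EC and from -0.12 to 0.26 in Ctrl, and cholangiocyte markers from -0.07 to 0.51 in Ctnnb1OE-EC and from -0.41 to 0.37 in Ctrl. Of these lists, 0 markers passed the limma test over all rows or the methods' t-test. At an unadjusted p under 0.05, 3 of 8 neutrophil and monocyte, 1 of 7 smooth muscle and 1 of 6 mesothelial markers were higher, beside 5.49% of all rows. The part of these lists in the retinoid results was not tested, and the 3 marker covariates came from other lists.

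Aldh8a1 and Adh1, enzymes of retinoid metabolism that hepatocytes express, had the same highest sample as Aldh1a1 in each genotype. Aldh8a1, a dehydrogenase of retinaldehyde, had log2 values of 7.24, 5.60, 3.61 and 4.16 in Ctnnb1OE-EC replicates 1 to 4, against 5.70, 4.59, 4.58 and 7.19 in Ctrl replicates 1 to 4. Adh1, an alcohol dehydrogenase that oxidizes retinol, had log2 values of 10.07, 8.58, 8.16 and 8.31 in Ctnnb1OE-EC, against 9.38, 8.01, 7.81 and 9.87 in Ctrl. Both were highest in Ctnnb1OE-EC replicate 1 and Ctrl replicate 4, as were the hepatocyte markers, and both were lowest in Ctnnb1OE-EC replicate 3. These genes were chosen after their values were seen.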
